A study of Mus musculus with 4 samples.

Results

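A set of 9 imprinted genes that act on growth was read in embryonic muscle: Dlk1, Meg3, H19, Peg3, Mest, Cdkn1c, Grb10, Plagl1 and Ndn. Every probe set that the platform annotation names with one of these 9 symbols was taken, which gave 35 probe sets of the 45101 on the array and 9 of the 18194 genes it reads. Muscle of BALB/c mouse embryos at E13.5 was hybridised to 4 Affymetrix arrays, 1 array per group. The groups were wild-type limb muscle, limb muscle of embryos null for Myod1 (MyoD-/-), wild-type back muscle, and back muscle of embryos labelled null for Myf5 (Myf5-/-). MyoD and Myf5 are transcription factors that commit cells to the skeletal muscle lineage. The labels do not say how the null alleles were made, how many embryos went into a sample, or whether a wild type was a littermate. With 1 array per group no test over samples was possible, and every ratio below compares 2 arrays with no replicate error.

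An imprinted gene is transcribed mainly or only from the chromosome inherited from one parent, because a control region near it was methylated in one germ line and not in the other. Many imprinted genes act on fetal growth, and as a rule those transcribed from the paternal copy promote it while those transcribed from the maternal copy restrain it. Several belong to a shared set that is high in fetal tissue, in muscle among others, and is turned down after birth. The arrays measure the summed RNA of both parental copies, so the parental origin of the transcripts was not measured.

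The letters upstream of the start sites of 4 members are shown because these genes were brighter in both back arrays than in both limb arrays (values below). Each line gives the 250 bases before the annotated start, 5′ to 3′ on the strand of the gene, from RefSeq on GRCm38.p6. Capitals mark the E-box CANNTG, a general motif of the protein family to which MyoD and Myf5 belong. They also mark TGCCGC or its reverse complement GCGGCA, the letters that ZFP57, a protein which keeps imprints methylated, recognises.
Dlk1, chr12:109452573-109452822, + strand: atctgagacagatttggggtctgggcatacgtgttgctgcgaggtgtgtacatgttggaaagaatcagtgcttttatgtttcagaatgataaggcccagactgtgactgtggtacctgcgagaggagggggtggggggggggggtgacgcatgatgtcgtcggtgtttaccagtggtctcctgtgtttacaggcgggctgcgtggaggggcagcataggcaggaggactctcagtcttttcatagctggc
Meg3, first start site, chr12:109540746-109540995, + strand: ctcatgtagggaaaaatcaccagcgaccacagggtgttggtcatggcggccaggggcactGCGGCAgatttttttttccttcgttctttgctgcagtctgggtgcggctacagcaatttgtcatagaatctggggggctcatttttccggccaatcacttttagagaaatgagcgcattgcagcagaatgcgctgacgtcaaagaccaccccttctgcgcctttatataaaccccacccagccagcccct
Peg3, chr7:6730420-6730669, - strand: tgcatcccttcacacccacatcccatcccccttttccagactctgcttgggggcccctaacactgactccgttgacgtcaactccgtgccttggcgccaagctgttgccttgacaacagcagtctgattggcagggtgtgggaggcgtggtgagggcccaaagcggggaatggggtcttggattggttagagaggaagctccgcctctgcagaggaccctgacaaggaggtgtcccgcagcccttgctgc
Plagl1, chr10:13090582-13090831, + strand: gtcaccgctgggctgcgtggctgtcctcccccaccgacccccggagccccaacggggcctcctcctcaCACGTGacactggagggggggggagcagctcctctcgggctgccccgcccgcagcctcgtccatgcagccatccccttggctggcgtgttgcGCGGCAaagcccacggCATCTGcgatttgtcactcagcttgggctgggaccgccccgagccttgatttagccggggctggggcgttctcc

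The windows shown for Dlk1, Meg3 and Peg3 held no E-box. That of Plagl1 held 2, CACGTG and CATCTG, whose first bases lie 182 and 74 bases before the start. The E-box forms CAGCTG and CAGGTG, counted apart, were matched 0 times in the Plagl1 window. TGCCGC was matched 1 time each in the Meg3 and Plagl1 windows and 0 times in the windows of Dlk1 and Peg3. The table holds windows for 7 of the 9 members, 11 windows in all, and not for H19 or Cdkn1c. Of the 11, 6 held an E-box, against 66.2% of the 32851 mouse promoter windows of that length, and 4 held TGCCGC, against 8.68%. Of these 4, 2 are windows of Mest that overlap almost wholly. The window of the second Meg3 start site is not shown. That window held 1 E-box, so it is among the 6, and it held no match to the ZFP57 letters. Both strands were searched and matches may overlap. The Grb10 window at its first start site held 40 CG pairs, that of Plagl1 19 and that of Ndn 5, where the median over all windows was 6. A match of letters is a description and shows no binding, and the windows without one say only that these letters are not there.

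H19 is an exception among the 9 in how it is named. Its only probe set carries the symbols Mir675 and H19, because the hairpin of miR-675 lies inside the H19 transcript, and its signal cannot be assigned to one of them. The 2 mature RNAs of that hairpin are shown with the seed, bases 2 to 8, in capitals, and their seeds differ. They are encoded on the - strand of chromosome 7, at chr7:142577112-142577133 and chr7:142577078-142577099 (GRCm38.p6).
miR-675-5p: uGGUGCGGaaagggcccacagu
miR-675-3p: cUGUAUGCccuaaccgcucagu

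Signals are MAS5 intensities, rescaled so that the 2% trimmed mean of each array is 500. Signals under 100 were set to 100 for ratios, a ratio is given as log2, and a gene was counted at 2-fold or more only if its brighter array reached 200. A gene with several probe sets is represented by the brightest, and signals of different probe sets are not comparable with each other as amounts of RNA. Where 4 signals follow one another without names, they are those of WT limb, MyoD-/- limb, WT back and the array labelled Myf5-/- back, in that order. The 9 members were bright. Of their 35 probe sets, 28 were at 100 or more in all 4 arrays, 4 in some and 3 in none, and 8 of the 9 members are represented by a probe set that reached 20000 in at least 1 array.

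The arrays differ in ways that touch such bright signals. Over the 182 genes at 20000 or more in either limb array, the median log2 ratio of MyoD-/- limb to WT limb was -0.29, against -0.01 over all 11344 genes counted. The back pair went the other way, with a median of 0.18 over 166 bright genes and 0.02 over all 11633. For WT limb over WT back it was 0.34 over 185 bright genes and 0.02 over all 11444. The ratio of 3′ to 5′ signal for Gapdh, a sign of RNA length, was lowest in WT back, at 6.45, and highest in WT limb, at 12.2. Myod1 read 1438 in WT limb and 688 in MyoD-/- limb. Myf5 read 508 in WT back against 583 in the array labelled Myf5-/-, so it was not lower there, and whether the probes lie in the deleted part is not known from the sources used here. All 11 skeletal muscle markers, among them Myog and Acta1, were at 100 or more in all 4 arrays.

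**Figure D1:**
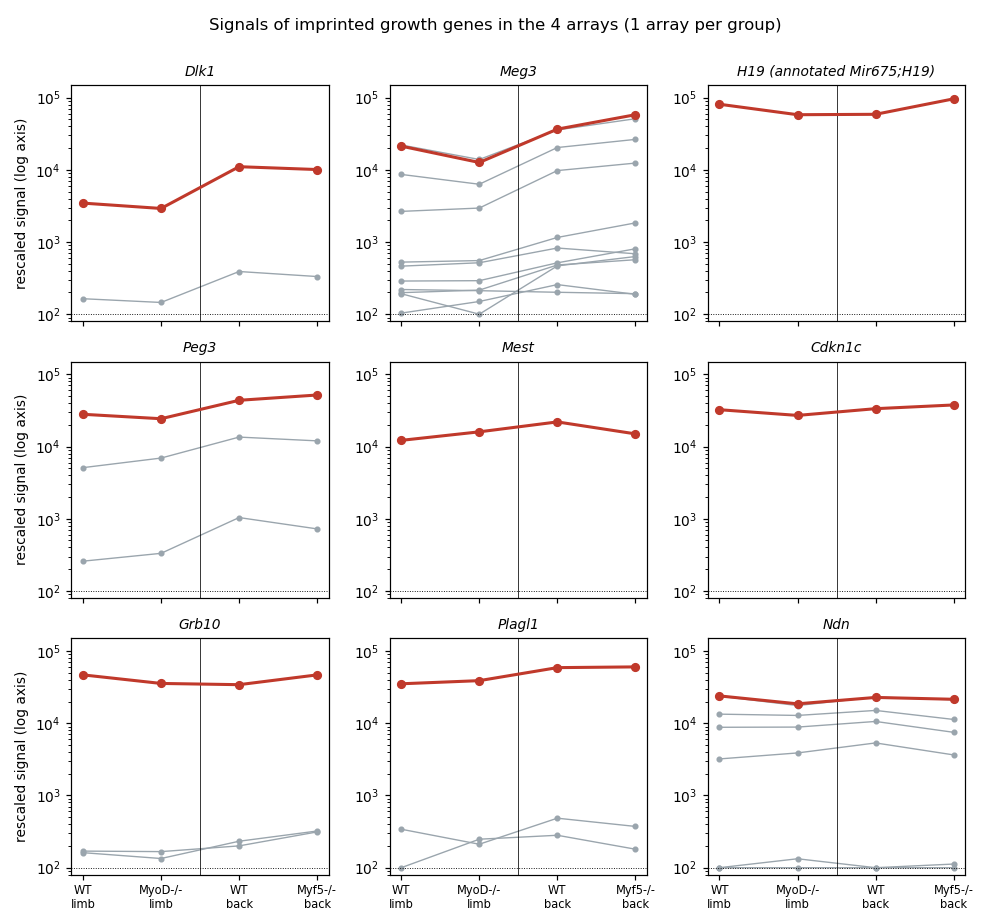
Signal of each member in the 4 arrays, 1 panel per gene, on a log axis with the same range in all panels. The red line is the probe set that represents the gene and grey lines are its other probe sets. A line joins the values of 1 probe set and is not a time course. Dlk1, Meg3, Peg3 and Plagl1 sit higher in the 2 back arrays on the right of each panel, while H19 and the brightest probe set of Grb10 are highest in WT limb and in the array labelled Myf5-/- back.

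The widest ratios were between body regions. Dlk1, Meg3, Peg3, Plagl1 and Cdkn1c each had both back arrays above both limb arrays, 5 of the 9 members, and no member had both limb arrays above both back arrays. Over all 10911 genes at 100 or more in all 4 arrays, 21.7% had both back arrays higher and 20.9% both limb arrays. The difference of means was 2-fold or more for 2 members, Dlk1 and Meg3, against a background of 1.61%. In WT limb over WT back alone, Dlk1 was the 1 member lower by 2-fold or more and 0 were higher by as much, where 4.47% of genes were lower and 6.76% higher by that rule. Among bright genes, at 20000 or more in the brighter array, both shares were 0.541%. Dlk1 was under 20000 in all 4 arrays. In the next lower range of signal, which holds Dlk1, both shares were 1.39% of 794 genes. The median log2 ratio of WT limb to WT back over the 9 members was -0.64, against 0.02 over all genes.

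Dlk1 is a membrane and secreted protein of the Delta and Notch family that is transcribed from the paternal copy and holds precursor cells of fat back from maturing. Its brightest probe set read 3455 in WT limb and 2914 in MyoD-/- limb, and 11034 in WT back against 10079 in the array labelled Myf5-/- back. Both back arrays were well above both limb arrays, and the arrays within a region were close. WT limb was 3.19-fold lower than WT back, a log2 ratio of -1.68, and MyoD-/- limb was 3.46-fold lower than the array labelled Myf5-/- back. The arrays of the second ratio differ in genotype as well as in region. The dim second probe set read 164, 146, 390 and 333 in the same order, a log2 ratio of -1.25 between the wild types, so both probe sets were lower in limb. Within regions the Dlk1 log2 ratios were small, -0.25 in the limb pair and -0.13 in the back pair. The median spread between probe sets of 1 gene is an SD of 0.34 in the limb pair, 0.32 in the back pair and 0.36 between the wild types, in log2, and both Dlk1 ratios within regions lie inside it. That spread covers differences between probes and not between embryos.

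Meg3 is a long noncoding RNA of the same imprinted cluster as Dlk1, transcribed from the maternal copy, and in the RefSeq gene order it lies 3 places after Dlk1 on chromosome 12. Its brightest probe set read 21251 in WT limb and 12625 in MyoD-/- limb, and 36539 in WT back against 57857 in the array labelled Myf5-/- back. The 2 back arrays were again the higher ones, and unlike Dlk1 the values also spread within each region. WT limb was 1.72-fold lower than WT back, and MyoD-/- limb was 4.58-fold lower than the array labelled Myf5-/- back. The second ratio differs in genotype as well as in region, and the 2 cannot be told apart in it. Meg3 has 11 probe sets, and 10 of them were lower in WT limb than in WT back, 6 of these at least 2-fold, with a median log2 ratio of -1.14. The exception was a dim probe set at 220, 212, 201 and 193 in the 4 arrays, in the order above. The probe set with the widest gap between the wild types read 2654, 2951, 9747 and 12378, a log2 ratio of -1.88. Probe sets of a long transcript with several forms need not measure the same RNA, and the annotation used here does not say which form each one reads.

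Peg3 encodes a zinc finger protein transcribed from the paternal copy that takes part in cell survival and maternal behaviour. Its brightest probe set read 27947 in WT limb and 24260 in MyoD-/- limb, and 43655 in WT back against 51668 in the array labelled Myf5-/- back, and a log2 ratio of -0.64 separated the wild types. The next read 5099, 6921, 13509 and 11977 (-1.41), and the dimmest that was measured read 258, 332, 1038 and 724 (-2.01). All 3 measured probe sets had both back arrays above both limb arrays, and between the wild types the ratio was larger at the lower signals. The other 2 probe sets of Peg3 were under 100 in all 4 arrays.

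Plagl1, also called Zac1, encodes a zinc finger transcription factor that is transcribed from the paternal copy, can stop the cell cycle, and is known to act on other genes of the imprinted growth set. Its brightest probe set read 35200 in WT limb and 38906 in MyoD-/- limb, and 58925 in WT back against 60319 in the array labelled Myf5-/- back. The arrays of a region were close to each other and the wild types differed by -0.74 in log2. A second probe set read 341, 211, 485 and 373, with the back arrays again higher. The remaining one was under 100 in WT limb and read 248 in MyoD-/- limb, at least 2.48-fold higher. It read 281 in WT back against 180 in the array labelled Myf5-/- back, so there the regions overlapped. This dim probe set is the one member probe set past 2-fold in the limb pair, and the brightest probe set of Plagl1 had a log2 ratio of 0.14 in that pair.

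Mest, or Peg1, encodes a protein of the hydrolase fold family that is transcribed from the paternal copy and is high in growing mesoderm. It read 12169 in WT limb and 15971 in MyoD-/- limb, and 21916 in WT back against 14967 in the array labelled Myf5-/- back. WT back stood highest, WT limb lowest, and the 2 mutant arrays lay between them, so limb and back overlapped. The wild types differed by -0.85 in log2, and the 2 mutant arrays by 0.09.

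Of the 28 member probe sets at 100 or more in all 4 arrays, 19 had both back arrays above both limb arrays, 1 had both limb arrays above, and 8 overlapped. Over all 17464 probe sets so measured, 21.7% had both back arrays above. Meg3 supplies 9 of the 19, and probe sets of 1 gene are not independent of each other. Peg3 supplies 3, Dlk1, Plagl1 and Grb10 2 each, and Cdkn1c 1. The 8 that overlapped are the 5 measured probe sets of Ndn and 1 each of H19, Mest and Grb10.

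**Figure D2:**
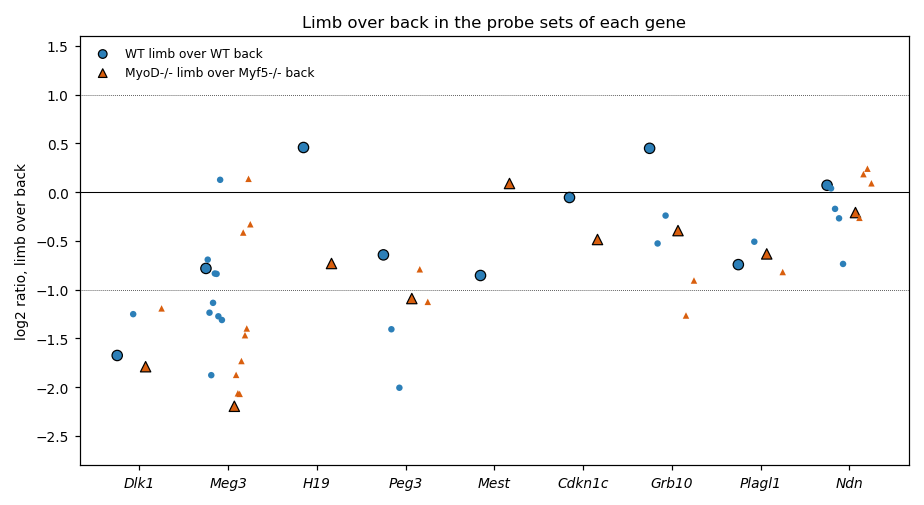
Log2 ratio of limb over back for every member probe set at 100 or more in all 4 arrays, with WT limb over WT back and MyoD-/- limb over the array labelled Myf5-/- back side by side and 0 marked. The probe sets of Dlk1 and Peg3 lie below 0 in both ratios, as do 9 of the 10 drawn for Meg3, while those of Ndn lie on both sides of 0. In the second ratio genotype differs along with region.

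Muscle genes also differed between the regions. All 11 skeletal muscle markers were lower in WT limb than in WT back, with a median log2 ratio of -0.78 and 3 at least 2-fold lower, and none of their defining members, Myod1, Myog and Des, was below 100. Their summed signal was 79938 in WT limb and 51701 in MyoD-/- limb, and 145859 in WT back against 99895 in the array labelled Myf5-/- back. The array labelled Myf5-/- back had a smaller sum than WT back. All 5 macrophage markers and the 6 measured neuron markers were also lower in WT limb than in WT back, with medians of -1.18 and -0.91. Summed macrophage signal ran from 3087 in MyoD-/- limb to 6553 in WT back, and summed neuron signal from 1022 in MyoD-/- limb to 2529 in WT back. Of 5 liver and yolk sac markers, 3 were at least 2-fold lower in WT limb, with Afp at 176 against 1651 in WT back and under 100 in both mutant arrays. All 5 epidermis markers were higher in WT limb, with a median of 0.70. Connective tissue markers had a median of -0.10 and cartilage markers one of 0.18. In whole muscle, fewer cells of a type and less RNA per cell cannot be told apart, and the part of these markers in the member ratios was not tested.

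The 4 maternally expressed members had ratios of opposite sign in the 2 mutant comparisons. Meg3, H19, Cdkn1c and Grb10 were all lower in MyoD-/- limb than in WT limb, with a median of -0.44, and all higher in the array labelled Myf5-/- back than in WT back, with a median of 0.56. None passed 2-fold in either pair, and all 4 are read by probe sets at 20000 or more, where the array medians given above have the same signs. In the limb pair 0 of the 9 members were higher and 0 lower by 2-fold or more, against 2.94% and 6.64% of genes. In the back pair 0 were higher and 0 lower, against 6.95% and 3.13%. Among genes as bright as most members, 1 of 182 was higher by 2-fold in the limb pair (0.549%, with 0 lower), and 1 of 166 was lower by 2-fold in the back pair (0.602%, with 0 higher), so the count of 0 among the 9 members is near the background at that signal. Cartilage markers stood apart in the back pair, where 6 of 7 were at least 2-fold lower in the array labelled Myf5-/- than in WT back, with a median of -2.04 and a summed signal of 4305 against 19205. In the limb pair all 7 were above 0, with a median of 0.25 (summed signal 16785 in WT limb, 20113 in MyoD-/- limb). None of the 7 was under 100 in any array, and their part in the members' ratios was not tested. The members' median was -0.26 in the limb pair, with 2 above 0 and 7 below, and 0.17 in the back pair, with 6 above and 3 below.

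H19 is a noncoding RNA transcribed from the maternal copy whose gene shares enhancers and a control region with Igf2, and it is among the most abundant RNAs of fetal muscle. Its probe set read 80811 in WT limb and 57885 in MyoD-/- limb, and 58635 in WT back against 95990 in the array labelled Myf5-/- back. MyoD-/- limb and WT back were nearly equal and the other two arrays were higher. The log2 ratios were -0.48 in the limb pair and 0.71 in the back pair. When the 4 arrays were quantile normalized these became -0.06 and 0.30, and the wild-type ratio went from 0.46 to -0.004. Igf2, the paternally expressed growth factor 3 places away, read 45331, 41014, 47800 and 62585 in the order of the arrays, with ratios of -0.14 and 0.39 in the 2 pairs. A dimmer probe set of Igf2 read 632, 353, 932 and 589, with ratios of -0.84 and -0.66. Igf2 therefore has no direction that both share in the back pair. The red blood cell marker Hbb-y was, like H19, highest in WT limb and the array labelled Myf5-/- back. It read 115330, 81483, 79867 and 128132, with ratios of -0.50 and 0.68 in the 2 pairs. Of the red blood cell markers measured, 3 were below 0 and 2 above in the limb pair, and 3 above and 1 below in the back pair. Their part in the H19 ratios was not tested.

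Grb10 encodes an adaptor that binds insulin and Igf1 receptors and dampens their signal, and is transcribed from the maternal copy in most tissues. Its brightest probe set read 46755 in WT limb and 35587 in MyoD-/- limb, and 34218 in WT back against 46748 in the array labelled Myf5-/- back. It ranked WT limb and the array labelled Myf5-/- back together at the top and the other two together below, as H19 did. The log2 ratio was -0.39 in the limb pair and 0.45 in the back pair. The 2 dim probe sets read 162, 134, 233 and 322, and 170, 167, 200 and 313. All 3 were below 0 in the limb pair, from -0.39 to -0.02, and above 0 in the back pair, from 0.45 to 0.64. Genes at 200 or more and under 1000 in the brighter array had a median of 0.10 in the back pair, and the part of the signal level in the Grb10 ratios was not tested. Under quantile normalization the brightest probe set had -0.09 in the limb pair and 0.18 in the back pair, both inside the spread between probe sets.

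Cdkn1c encodes p57, an inhibitor of cyclin-dependent kinases that takes muscle precursors out of the cell cycle and is transcribed from the maternal copy. Its single probe set read 32337 in WT limb and 26959 in MyoD-/- limb, and 33425 in WT back against 37617 in the array labelled Myf5-/- back. The order put both back arrays above both limb arrays, but the wild types differed by only -0.05 in log2. The ratios of -0.26 in the limb pair and 0.17 in the back pair were close to the medians of genes as bright, -0.29 and 0.18, and the 2 ratios lie inside the spread between probe sets.

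Meg3 had a log2 ratio of -0.75 in the limb pair, the widest of the 9 by the brightest probe sets, and 0.66 in the back pair, where H19 was wider. Its probe sets did not share a sign in the limb pair. In the limb pair 6 of the 11 were above 0 and 5 below, with a median of 0.02. In the back pair 8 were above and 3 below, with a median of 0.37. The 3 brightest had limb pair ratios of -0.75, -0.67 and -0.45, and the fourth, at 2654 and 2951, one of 0.15. The dim probe set at 192 in WT limb was under 100 in MyoD-/- limb, a fold of at least 1.92 lower.

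Among the paternally expressed members the pairs showed no shared direction. In the limb pair 2 of the 5 were above 0 and 3 below, with a median of -0.20, and in the back pair 2 were above and 3 below, with a median of -0.09. Mest was higher in MyoD-/- limb than in WT limb (0.39) and lower in the array labelled Myf5-/- back than in WT back (-0.55), signs opposite to the medians of genes at 20000 or more. Peg3 had -0.20 and 0.24 by its brightest probe set, but 0.44 and -0.17 by the next and 0.36 and -0.52 by the dimmest, so its direction in the mutants depended on the probe set. Plagl1 had 0.14 and 0.03 by its brightest probe set, whose name marks shared probes, but -0.69 and -0.38 by the next, and the dimmest was higher in MyoD-/- limb and had -0.64 in the back pair. Its direction too depended on the probe set.

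Ndn encodes necdin, a protein of the MAGE family that is transcribed from the paternal copy and promotes the exit of precursor cells from the cycle. Its brightest probe set read 23920 in WT limb and 18579 in MyoD-/- limb, and 22779 in WT back against 21482 in the array labelled Myf5-/- back, the narrowest range of the 9 members. Limb and back overlapped in each of the 5 measured probe sets. The probe set at lower signal read 3207, 3882, 5340 and 3646, with ratios of 0.28 in the limb pair, -0.55 in the back pair and -0.74 between the wild types. The brightest one had ratios of -0.36, -0.08 and 0.07 for these contrasts, so Ndn has no direction that its probe sets share in the limb pair. All 5 measured probe sets were below 0 in the back pair, from -0.55 to -0.08. Of the other 3, 2 reached 100 in 1 array each and 1 in none.

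**Figure D3:**
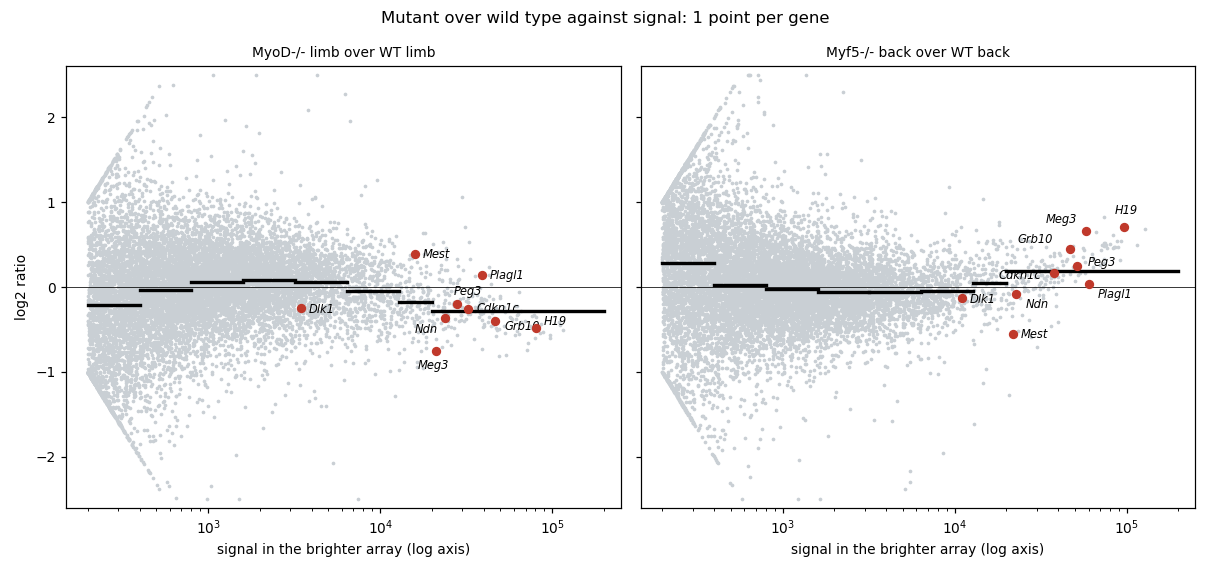
Log2 ratio of mutant over wild type against the signal of the brighter array (log axis), 1 grey point per gene, with members in red and the median of genes in each signal range as black bars; ratios beyond 2.5 are drawn at the edge. Most members lie near the right end, where the bar is at -0.29 for the limb pair and at 0.18 for the back pair. In the back pair Mest lies on the other side of 0 from that bar. In the limb pair Mest is above 0 and, under 20000 in both arrays, lies to the left of that bar.

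The genes beside the members were read next, up to 3 places either side in the RefSeq order. There were 21 such neighbours with a probe set of their own, and 18 of them reached 100 in at least 1 array. Next to Cdkn1c, the noncoding RNA Kcnq1ot1, which silences genes of that cluster on the paternal copy, read 185 in WT limb and 289 in MyoD-/- limb, and 634 in WT back against 614 in the array labelled Myf5-/- back. It was lower in limb by a log2 ratio of -1.78, where Cdkn1c had -0.05. Phlda2, on the other side of Cdkn1c, read 134, 178, 113 and 271, a log2 ratio of 1.26 in the back pair.

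Magel2, the MAGE gene next to Ndn, read 696, 876, 1317 and 1004, with ratios of 0.33 in the limb pair, -0.39 in the back pair and -0.92 between the wild types. These have the signs of the dimmest measured Ndn probe set. Copg2, which overlaps the end of Mest, read 640, 752, 754 and 579, with ratios of 0.23, -0.38 and -0.24, the same signs as Mest. Whether probes of the 2 genes lie in sequence they share was not examined. Zim1, next to Peg3, read 129, 103, 162 and 249, and Usp29 read 103 in WT limb and under 100 in MyoD-/- limb, and 218 in WT back against 118 in the array labelled Myf5-/- back. Ltv1, which is near Plagl1 and is not on the list of imprinted genes used here, read 504, 742, 1434 and 1188, a log2 ratio of -1.51 between the wild types, larger than that of Plagl1.

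Of 60 other imprinted genes listed, 51 were on the array, and their median between regions was close to that of all genes. In WT limb over WT back, 4 of the 46 measured were lower by 2-fold or more and 0 higher, with a median of -0.05. The 4 were Kcnq1ot1, Dcn, Osbpl5 and Usp29. Kcnq1ot1 was lower by each of its 3 measured probe sets. Dcn, which encodes the matrix proteoglycan decorin, read 2995 in WT limb and 8945 in WT back, a log2 ratio of -1.58, while a dim probe set of it read 297 and 168. Rian, a noncoding RNA of the Dlk1 and Meg3 cluster, was brightest at 3322, 3932, 3638 and 3895, without the offset, and another of its probe sets read 361, 415, 1498 and 1748, with it.

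In the limb pair 2 of the 46 measured were lower by 2-fold or more and 0 higher, Ins2 and Sfmbt2, with a median of -0.07. In the back pair 2 of 44 were higher, Phlda2 and Trappc9, and 0 lower, with a median of -0.09. The members' medians in the same contrasts were -0.26, 0.17 and -0.64 for limb pair, back pair and wild types.

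**Figure D4:**
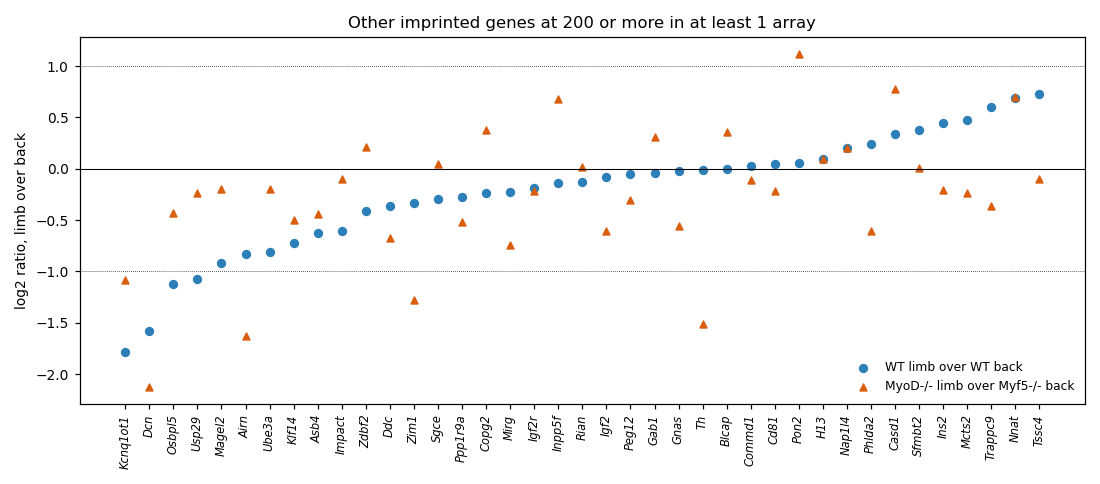
Log2 ratios of WT limb over WT back and of MyoD-/- limb over the array labelled Myf5-/- back, for other imprinted genes. The 39 genes drawn are those whose brightest array reached 200 or more. Of the 39, 19 lie below 0 in both ratios and 6 above 0 in both. The share of all genes with these signs was not counted, so no excess can be read from them. In the second ratio genotype differs along with region.

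The partners of the members were read in lists. Of 8 genes of the Notch pathway and the Dlk1 relative Dlk2, 0 were past 2-fold in either mutant pair and 1 in the wild types. That one was Dlk2, which read 443 in WT limb and 166 in WT back, a log2 ratio of 1.41 and so opposite to Dlk1. The receptor Notch2 read 19590, 10462, 12922 and 11779, and the target Hes1 read 1564, 2011, 1746 and 1435. A dim probe set of Notch2 was under 100 in WT back and read 327 in the array labelled Myf5-/- back. Its back pair log2 ratio was at least 1.71, where the brightest probe set had -0.13. Among 9 measured inhibitors and partners of the cyclin-dependent kinases that p57 acts on, 1 passed 2-fold in the limb pair, Cdkn2d, at 115 in WT limb and 290 in MyoD-/- limb. Cdkn2d was also the 1 of 9 past 2-fold between the wild types (-1.20), and 0 passed in the back pair. Cdkn1a, which encodes p21, read 2811, 1874, 4575 and 2669, lower in both mutants than in their wild types (-0.58 and -0.78) but under 2-fold, and a dim probe set of it was higher in MyoD-/- limb, at 600 against 291.

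Of 10 receptors, ligands and relatives of Grb10, 0 passed 2-fold in either mutant pair. Between the wild types Grb14, a paralog of Grb10, was higher in limb at 415 against 153 (1.44), and the growth factor Igf1 was lower at 4404 against 10926 (-1.31). All 4 probe sets of Igf1 were lower in limb, and MyoD-/- limb and the array labelled Myf5-/- back read 4648 and 9834 for the brightest. The receptor Igf1r read 2045, 2143, 1927 and 1857. Of the 6 MAGE family relatives of Ndn on the array, 0 passed 2-fold, 5 were above 0 in the limb pair and 5 below 0 in the back pair. Maged1, the brightest of them, read 7511, 10516, 11502 and 10252. Plagl2, the one measured relative of Plagl1, read 890, 901, 1002 and 1266.

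Of the regulators of imprinting 14 were on the array, and 0 passed 2-fold in any of the 3 contrasts. Ctcf, the insulator protein that binds the control region of H19 and Igf2, read 3072 in WT limb and 2022 in MyoD-/- limb, and 1673 in WT back against 2514 in the array labelled Myf5-/- back. Its ratios were -0.60 and 0.59 in the 2 pairs, while its other probe set, at 1477, 1796, 1748 and 1573, had 0.28 and -0.15, so Ctcf has no direction that both share. Dnmt1, the methyltransferase that copies methylation at replication, read 11502, 8434, 6748 and 7505. Another probe set of Dnmt1 read 4549, 5045, 5100 and 4727, with the opposite sign in each of the 3 contrasts, while a further one had the signs of the brightest. Of 10 proliferation genes 0 passed 2-fold, with medians of 0.23, -0.11 and -0.20 in the limb pair, the back pair and the wild types.

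The genes most like the 3 members of widest range were sought among 10553 genes, by the distance between log2 signals centred on each gene's own mean over the 4 arrays. For Dlk1 these were Adgre5 at a distance of 0.15, Postn at 0.17 and Nefm at 0.18. Postn, which encodes the matrix protein periostin, read 5509, 4501, 19889 and 16562. For Meg3 they were Atp6v0a1 (0.26), the secreted Wnt antagonist Sfrp1 (0.26) and Cilp (0.35), and Sfrp1 read 1140, 873, 2280 and 3465. Another probe set of Atp6v0a1 has a different pattern. For Peg3 they were Capn3 (0.08), a muscle protease, Haus5 (0.09) and St7l (0.11). Another probe set of Capn3 was nearly flat, at 157, 139, 159 and 149. The other probe sets of St7l were not lower in WT limb than in WT back, with log2 ratios of 0.14 and 0.23. With 4 arrays a close match is easily found, and it is given as a description.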

How the data were processed

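Total RNA, 6 µg a sample, was hybridised as biotin-labelled cRNA, per the labels' protocols. The authors deposited linear intensities of probe sets. The submitters' processing notes name MAS5; a version was not given. The deposited columns had nearly equal trimmed means, 1477 to 1479. Each array was rescaled to a 2% trimmed mean of 500, values below 100 were raised to 100, and log2 ratios between arrays were taken over the whole table with Python 3.11.15, numpy 2.4.6, pandas 2.3.3 and statsmodels 0.14.6 (loess). The floor understates ratios of dim genes, and "at least" marks a ratio against it. Of 45101 probe sets, 34958 have 1 symbol, 932 have several and 9211 are unnamed here. Genes other than H19 were named only from probe sets with 1 symbol. The deposited table gives no detection calls here, and the number of arrays limits the precision.

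Named genes are all 9 members, their neighbours up to 3 places away, up to 4 members per list with the largest ratios, others needed to describe a list, and the 3 most alike genes for 3 members. Members, lists and markers were chosen with earlier results of these data known. The 8 alternatives were quantile normalization, the deposited scale, loess with a span of 0.3, floors of 50 and 200, a pseudocount of 100, the median over probe sets, and leaving out shared-probe sets. A further 1, leaving out probe sets at 20000 or more, was chosen after seeing the data. The steps were tested on simulated data. Sequences and gene order are from RefSeq GRCm38.p6, which is not a build of the array values.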

Additional observations from a re-analysis of the deposited data

Results flagged for a closer look

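With 1 array per group, the limb pair and the back pair could not be tested against each other, and the differences below were not tested. For 4 members the log2 ratios of mutant to wild type had opposite signs in the 2 pairs, each beyond the spread of probe sets within a gene (median SD), 0.34 in the limb pair and 0.32 in the back pair. Meg3 had -0.75 in the limb pair and 0.66 in the back pair, a difference of -1.41. H19 had -0.48 and 0.71, a difference of -1.19. Grb10 had -0.39 and 0.45, a difference of -0.84. Mest had 0.39 and -0.55, a difference of 0.94. Genes at 20000 or more in the brighter array had medians of -0.29 and 0.18 in the 2 pairs, the signs of Meg3, H19 and Grb10 and not of Mest, and the part of the signal level in these differences was not tested. Under quantile normalization the ratios of H19 were -0.06 and 0.30 and those of Grb10 -0.09 and 0.18, all inside that spread, while Meg3 had -0.62 and 0.33 and Mest 0.52 and -0.61. The limb pair ratio of Meg3 was 0.02 with the median over its probe sets and 0.15 without probe sets at 20000 or more.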

How the results depend on the processing

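No paired analysis was possible because each group has 1 array. No 2-fold call of a member changed sign, and 205 of 234 member ratios over the alternatives stayed within the spread between probe sets while 29 moved past it. Dlk1 was at least 2-fold lower in WT limb than in WT back in each of the 9 alternatives. The count of members past 2-fold there was 4 under quantile normalization and 4 under loess, where Meg3 (-1.08 and -1.04), Mest (-1.01 and -1.03) and Plagl1 (-1.16 and -1.06) joined it. It was 2 with the median over probe sets (Meg3, -1.14), and 3 without probe sets at 20000 or more (Meg3, -1.88, and Peg3, -1.41), where the members' median in the back pair, over the 6 members left, became -0.15. That median was also -0.13 under quantile normalization, 0.02 under loess and 0.00 with the median over probe sets, against 0.17. Signs of small ratios turned: in the limb pair Meg3 ranged from -0.75 to 0.15, Peg3 from -0.20 to 0.44, Plagl1 from -0.69 to 0.44 and Ndn from -0.36 to 0.01, and in the back pair Peg3 from -0.17 to 0.24 and Plagl1 from -0.38 to 0.03. Those of Grb10 and H19 shrank inside the spread between probe sets under quantile normalization. The members past 2-fold on average with no overlap between regions numbered 2 in 7 alternatives and 3 without the brightest probe sets; loess was fitted within pairs and gives no such count. Counts over all genes moved more. Genes at least 2-fold higher in the back pair numbered 518 under quantile normalization against 808. Under loess 302 were lower in the limb pair against 753, 273 higher in the back pair, and 488 higher in WT limb than in WT back against 774. With a floor of 200, higher and lower genes numbered 115 and 181 in the limb pair, 152 and 123 in the back pair, and 247 and 261 between the wild types. With a pseudocount they numbered 150 and 329, 413 and 164, and 393 and 270, and with the median over probe sets 179 and 430, 494 and 203, and 450 and 319. The share of calls that were higher was 30.7%, 68.9% and 60.2% in the limb pair, the back pair and the wild types, 45.6%, 50.1% and 53.1% under quantile normalization, 58.6%, 35.6% and 45.9% under loess, and 38.9%, 55.3% and 48.6% with a floor of 200. The causes were not tested, except that a higher floor or a pseudocount shrinks ratios of dim genes by construction. Signals under 100 have no order, and 3 member probe sets have no level in any array.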
